A study of Homo sapiens with 4 samples.

Results

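The genes described here are 10 protein-coding genes of the motile cilium: 3 axonemal dynein heavy chains (DNAH5, DNAH7, DNAH10), the dynein chain WDR78, the assembly factor DNAAF1, the inner arm protein CFAP57, the central pair proteins SPAG17 and SPEF2, and the doublet microtubule proteins TEKT4 and ENKUR. They were taken by symbol from the gene list that the authors deposited for this comparison, where they are 10 of 742 distinct symbols. Because presence in that table chose them, their being listed and their values are descriptions and are not tested. The study compared K562 cells, an established human chronic myelogenous leukaemia line that the labels give as lymphoblast, after transfection of an siRNA against the long non-coding RNA HMRHL (2 libraries) or of a scrambled siRNA (2 libraries). All cells were at passages 15-20, and RNA was extracted with Trizol 36 hours after transfection for a stranded library kit. Nothing in the labels tells if replicate libraries are separate cultures or technical repeats.

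A motile cilium or sperm flagellum beats because dynein motors, fixed in rows as outer and inner arms on the doublet microtubules of the axoneme, slide neighbouring doublets against each other. The central pair and the radial spokes control which motors are active, and tektins and other proteins inside the doublets stiffen them. Dynein arms are put together in the cytoplasm by dedicated assembly factors before they enter the cilium. These genes are best known from airway, ependymal and oviduct cells and from sperm, where the transcription factors FOXJ1 and RFX2 or RFX3 switch on many of them, and inherited loss of several of them causes primary ciliary dyskinesia. K562 is a leukaemia line and not a multiciliated cell.

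Each gene has 1 value, a fold change made by the authors from both groups, with no error, p-value, expression level or value per library. The values were read as log2 and as knockdown over scramble, neither of which the table states. Replicate spread and sequencing depth are therefore unknown for every gene, and the labelled cell type could not be checked against levels of its markers. The table gives only selected genes: its value nearest to 0 was -1.15 (SLC17A7) on the lower side and 1.50 (BBOX1) on the higher side in the authors' deposited table.

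The promoters of 4 of the genes are shown first, because each has the letters of an RFX-type palindrome close to the transcript start and because DNAH7 and CFAP57 were listed as lower while TEKT4 and ENKUR were listed as higher. The windows run from 250 bases before to 50 bases after the start and come from RefSeq on GRCh38.p14. Capitals mark the RFX-type letters, and the strand of the gene is read 5′ to 3′. The windows are chr2:196068788-196069087 on the minus strand for DNAH7, chr1:43172080-43172379 on the plus strand for CFAP57, chr2:94871180-94871479 on the plus strand for TEKT4 and chr10:25016109-25016408 on the minus strand for ENKUR.
DNAH7: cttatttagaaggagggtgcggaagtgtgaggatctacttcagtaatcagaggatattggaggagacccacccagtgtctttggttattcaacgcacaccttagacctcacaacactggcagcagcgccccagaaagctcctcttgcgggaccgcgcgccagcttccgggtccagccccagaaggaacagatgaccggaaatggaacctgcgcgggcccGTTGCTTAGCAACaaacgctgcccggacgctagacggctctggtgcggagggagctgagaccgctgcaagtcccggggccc
CFAP57: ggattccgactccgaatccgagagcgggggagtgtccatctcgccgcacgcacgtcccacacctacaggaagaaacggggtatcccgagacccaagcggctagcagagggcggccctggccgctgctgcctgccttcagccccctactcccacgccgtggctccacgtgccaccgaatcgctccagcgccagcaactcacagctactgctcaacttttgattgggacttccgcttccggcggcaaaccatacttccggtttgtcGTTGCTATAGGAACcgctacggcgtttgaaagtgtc
TEKT4: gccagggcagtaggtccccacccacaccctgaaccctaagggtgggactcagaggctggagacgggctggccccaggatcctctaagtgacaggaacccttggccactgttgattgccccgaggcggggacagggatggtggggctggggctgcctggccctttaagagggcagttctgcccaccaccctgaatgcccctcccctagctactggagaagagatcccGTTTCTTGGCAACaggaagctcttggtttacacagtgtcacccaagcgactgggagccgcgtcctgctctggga
ENKUR: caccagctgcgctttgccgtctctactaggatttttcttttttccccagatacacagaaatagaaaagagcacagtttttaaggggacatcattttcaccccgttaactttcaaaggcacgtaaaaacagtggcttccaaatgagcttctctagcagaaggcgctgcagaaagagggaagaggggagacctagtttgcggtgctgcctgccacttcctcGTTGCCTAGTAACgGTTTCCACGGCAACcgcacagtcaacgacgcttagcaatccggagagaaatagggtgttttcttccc

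Of the 10 genes, 8 had a negative value and 2 a positive value in the authors' deposited table, which is lower and higher in the knockdown as the direction was read here. Read as scramble over knockdown, 2 would be lower and 8 higher. Among all 742 listed symbols, 69.4% were lower and 30.6% were higher, so the members' split of 80.0% to 20.0% lay near that of the whole table. The median of the members was -1.44 on the log2 scale, and that of all listed symbols was also -1.44 in the authors' deposited table. Their values ran from -2.17 (DNAH5) to 2.16 (TEKT4) in the authors' deposited table, whereas all listed symbols ran from -6.42 to 5.91. In absolute log2 value the median was 1.56 for the members and 1.82 for all listed symbols. The members' values were thus somewhat smaller than those of the whole table, a difference that was not tested. In bulk RNA, fewer cells that express a gene and less of its RNA per cell cannot be told apart. Of the members, 3 were listed at 4-fold or more (1 higher, 2 lower), which is 30.0%, beside 39.6% of all listed symbols (118 higher, 176 lower).

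**Figure D1:**
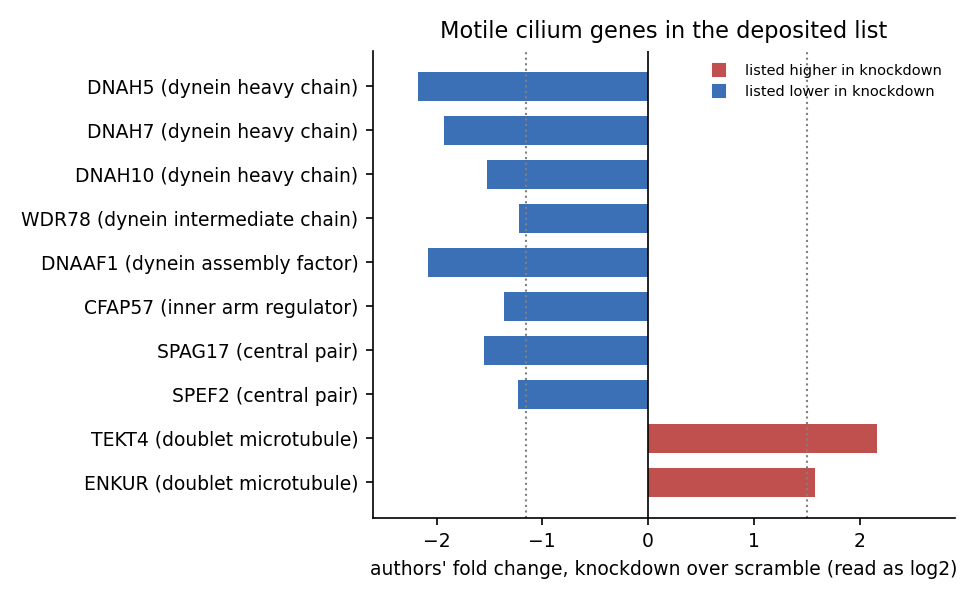
Bars give the authors' fold change, read as log2 of knockdown over scramble, for each of the 10 genes, ordered by role; there is 1 value per gene and so no error bar. Dotted lines mark the values nearest to 0 in the whole table (-1.15 and 1.50). Among these 10 genes, the dynein, assembly, inner arm and central pair genes lie on the lower side, and both doublet microtubule genes on the higher side. Other listed genes of the axoneme lists, not drawn here, break this split: the dynein-associated CASC1 was higher, and the doublet proteins C1orf158 and SPAG8 were lower.

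The dynein heavy chains are the motors, and all 3 that were listed were lower. Of all listed symbols 69.4% were lower, so nothing is read from the shared direction of so few genes. DNAH5, a heavy chain of the outer arm and a frequently mutated gene in primary ciliary dyskinesia, was at -2.17 in the authors' deposited table, which is 4.51-fold when read as log2. DNAH7, a heavy chain of the single-headed inner arms, was at -1.92 (3.80-fold) in the authors' deposited table. DNAH10, a heavy chain of the double-headed inner arm, was at -1.53 (2.88-fold) there, in 2 rows of the authors' deposited table with the same value. DNAH5 therefore lay farthest from 0 of the members, with 72.2% of all lower symbols nearer to 0. The other listed symbols next to DNAH5 in value were THY1 (-2.18) and MYH7B (-2.16) in the authors' deposited table.

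The other members that build or regulate the dynein arms were lower as well. WDR78, which RefSeq now names DNAI4 and which is an intermediate chain linked to the double-headed inner arm, was at -1.22 (2.32-fold) in the authors' deposited table. It is among the values closest to the table's lower limit, with 8.74% of all lower symbols nearer to 0. DNAAF1, a leucine-rich repeat protein needed to assemble outer and inner arms, was at -2.08 (4.23-fold) in the authors' deposited table. CFAP57, a WD-repeat protein whose Chlamydomonas counterpart helps to place inner arm dyneins, was at -1.36 (2.56-fold) in the authors' deposited table. DNAAF1 thus had a value near that of DNAH5, and WDR78 had one near the limit of entry; without errors, these sizes cannot be ranked.

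The central pair members were lower too, as were most listed symbols. SPAG17, a large protein of a central pair projection, was at -1.55 (2.93-fold) in the authors' deposited table. SPEF2, another central pair protein needed for sperm tail formation in the mouse, was at -1.23 (2.34-fold) in the authors' deposited table, with 11.1% of all lower symbols nearer to 0. WDR78, SPEF2 and CFAP57 lie nearer to 0 than any higher symbol in the table, so genes with changes of their size could have entered only on the lower side. When 1.50 was asked for on either side, 5 lower and 2 higher members were left. Of all listed symbols, 339 lower and 227 higher ones were left at that minimum.

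The members of the doublet wall, TEKT4 and ENKUR, were on the other side. TEKT4, a tektin that is needed for normal sperm motility in the mouse, was at 2.16 (4.48-fold) in the authors' deposited table. ENKUR, enkurin, a protein inside the doublet microtubule, was at 1.58 (2.99-fold) in the authors' deposited table. ENKUR lay close to the limit of entry on the higher side, with 5.29% of all higher symbols nearer to 0, while 57.3% were nearer to 0 than TEKT4. A TEKT4 pseudogene, TEKT4P2 on chromosome 21, matched the longest TEKT4 transcript over 59.1% of its length at 80% identity or more, with 90.7% in the best stretch. An unnamed pseudogene on chromosome Y (AC134878.2) matched over 58.9%. The search covered annotated transcripts that do not overlap the gene's own locus. Among these, no copy reached 95% identity over 50% of the longest transcript for any of the 10 genes.

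**Figure D2:**
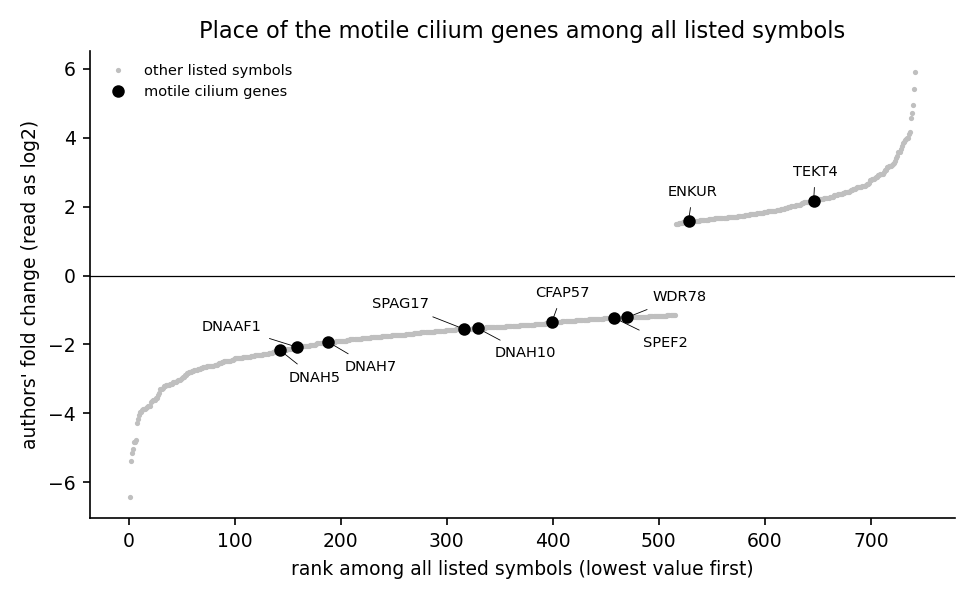
Each grey point is 1 of the 742 listed symbols, placed by its rank (lowest value first) and its authors' fold change read as log2; black points are the 10 motile cilium genes. On the lower side the genes run from -2.17 (DNAH5, with 72.2% of lower symbols nearer to 0) to -1.22. On the higher side they lie at 1.58 and 2.16, with 57.3% of higher symbols nearer to 0 than TEKT4.

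The listed genes are a minority of each axonemal structure. On 8 lists that cover the axoneme, 13 of 117 genes were listed, 3 higher and 10 lower. This is 11.1% of the lists, beside 3.71% of all annotated protein-coding genes (2.57% lower and 1.13% higher). The members were chosen from the table and make up 10 of these 13, so nothing is read from that share. Of the heavy chain list, 3 of 13 genes were listed, all lower. Of the dynein intermediate, light and docking chains, 2 of 13 were listed, WDR78 and CASC1, which RefSeq now names DNAI7. CASC1, a dynein-associated protein, was at 1.60 in the authors' deposited table, so this list had 1 gene on each side. Of the 12 assembly factors counted here, DNAAF1 alone was listed. C16orf71, which RefSeq now names DNAAF8, was not counted on these lists and is given under other observations.

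Of 13 central pair genes, SPAG17 and SPEF2 were listed, and of 6 inner arm tether genes CFAP57. Of 30 tektins and doublet inner proteins 4 were listed, 2 higher (TEKT4, ENKUR) and 2 lower. The lower ones were C1orf158, a doublet inner protein that RefSeq now names CFAP107, at -3.03, and SPAG8, another doublet inner protein, at -1.36 in the authors' deposited table. Doublet proteins were thus split, and TEKT4 and ENKUR do not stand for all of its listed genes. None of 17 radial spoke genes and none of 13 genes of the nexin-dynein regulatory complex and ruler was listed. At 3.71%, lists of these lengths would hold 0.630 and 0.482 genes, so either absence is no result.

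Genes that act before or around the axoneme were mostly not listed, as most annotated protein-coding genes were not. None of 11 regulators of multiciliated cells, among them FOXJ1, RFX2 and RFX3, and none of 12 markers of ciliated cells was in the table. None of 31 genes of intraflagellar transport, 25 of the BBSome and transition zone, or 16 of cytoplasmic dynein and dynactin was in it either. At 3.71% these lists would hold between 0.408 and 1.15 genes each, so their absence is no result. None of 13 erythroid genes that mark K562 was listed, where 0.482 would be, so this absence is no result either. Of 20 sperm tail genes 2 were listed (10.0%), where 0.741 would be at 3.71%. AKAP3, a scaffold of the fibrous sheath, was at -2.14, and SPATA6, needed for the sperm neck in the mouse, was at -4.77 in the authors' deposited table. Of all listed symbols 69.4% were lower, so nothing is read from these 2 genes. A gene outside the table was not selected by the authors, which does not show an equal level in the groups.

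**Figure D3:**
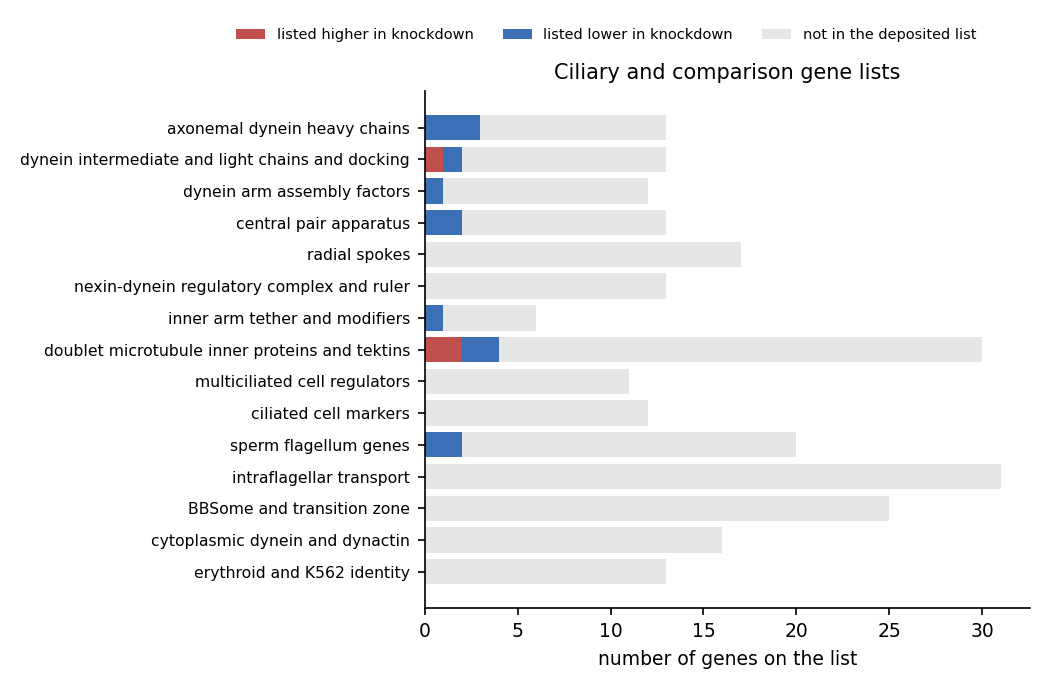
Bars give the number of genes on each of 15 lists, split into genes listed as higher in the knockdown, listed as lower, and not in the table. Listed genes are few in every list, with 4 of 30 doublet proteins and 3 of 13 heavy chains. The lists of spokes, regulatory complex, multiciliated cell regulators, ciliated cell markers, transport, BBSome and transition zone, cytoplasmic dynein and erythroid genes have none. At the 3.71% of all protein-coding genes that are listed, each empty list would hold 0.408 to 1.15 genes, so its emptiness is no result.

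Most of the lower members are long genes. In GENCODE release 29, DNAH5 has the third longest coding sequence of the 740 listed genes with a gene model (13872 bp, 4624 codons, chromosome 5 from 13690331 to 13944543, minus strand). DNAH10 was the fifth (13596 bp, chromosome 12 from 123762188 to 123936206, plus strand), and DNAH7 was in place 9 (12072 bp, chromosome 2 from 195737703 to 196068812, minus strand). The longest transcripts of DNAH5, DNAH10 and DNAH7 have 79, 78 and 65 exons. The median coding length was 5178 bp for the 10 genes, 1485 bp for all listed genes and 1284 bp for all annotated protein-coding genes. The median span was 143 kb, beside 30.2 kb and 27.1 kb for those same sets.

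The lower members were the longer ones, with coding lengths from 2175 bp (DNAAF1) to 13872 bp (DNAH5), and the higher members, TEKT4 (1305 bp) and ENKUR (768 bp), were the shorter ones. Over all listed genes, direction did not follow length in this way. Of the 19 listed genes with at least 8000 bp of coding sequence 68.4% were lower, and of the 204 under 1000 bp 71.6% were. Between these, the lower share was 72.1% from 1000 to 2000 bp, 66.1% from 2000 to 4000 bp and 60.6% from 4000 to 8000 bp. The share of genes in the table varied with length: 8.52% of the 223 annotated genes of at least 8000 bp were listed, beside 2.80% of the 7239 under 1000 bp. DNAH5, DNAH7 and DNAH10 are 3 of those 19 long genes. The part of length in their being listed was not tested.

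**Figure D4:**
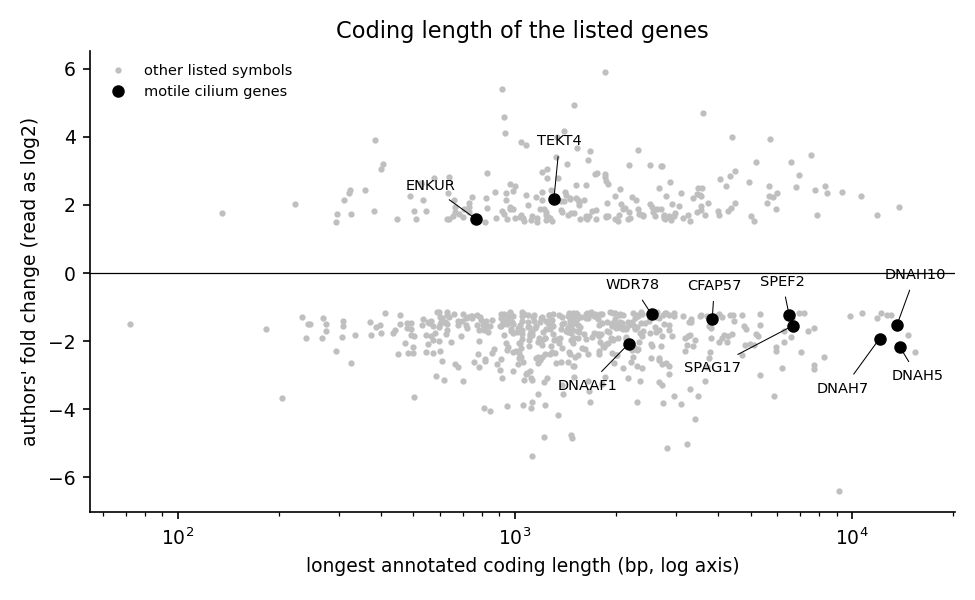
Each point is a listed gene, placed by its longest annotated coding length in bp (log axis) and its authors' fold change read as log2; black points are the 10 motile cilium genes. The dynein heavy chains lie at the right edge, between 12072 and 13872 bp, and ENKUR and TEKT4 at 768 and 1305 bp.

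Most of the genes share exonic bases with a gene on the other strand. This held for 8 of the 10 (80.0%), beside 37.3% of all listed symbols. Any shared base counted, and the members are longer genes, with a median of 29 exons beside 8 for all listed genes. The part of length in this share was not tested. DNAH7 and ENKUR had no such overlap, and no member had one on its own strand. The partner was protein-coding in 4 cases. The 3′ part of SPAG17 shares 1759 bp, 18.4% of its exonic bases, with WDR3, and CFAP57 shares 668 bp (11.6%) with EBNA1BP2. DNAH10 shares 975 bp (5.83%) with CCDC92 and 1800 bp (10.8%) with the antisense gene DNAH10OS, and DNAAF1 shares 450 bp (5.78%) with TAF1C. DNAH5, WDR78 and SPEF2 share 1.26%, 2.80% and 0.483% with antisense genes.

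TEKT4 shares 58.5% of its exonic bases with an opposite-strand pseudogene (AC097374.1). None of the 4 protein-coding partners was in the authors' deposited table. The other 5 are antisense genes or a pseudogene, types that a list of protein-coding genes is not meant to hold. The libraries were made with a stranded kit, but no source used here says if strand was kept in counting. If it was not, reads of a gene and its partner could not be told apart, and the part of this in the listed values was not tested. Without the members that have an overlap, 1 lower gene (DNAH7) and 1 higher gene (ENKUR) were left. The median went to -0.17 on the log2 scale, against -1.44 with all 10. It is then the midpoint of values with opposite signs, so nothing is read from it.

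The genes are scattered over the genome. DNAAF1 lies on chromosome 16 from 84145287 to 84178767, TEKT4 on chromosome 2 from 94871433 to 94876829, SPEF2 on chromosome 5 from 35617844 to 35814611 (all plus strand), and ENKUR on chromosome 10 from 24981979 to 25062279 (minus strand). Chromosome 1 holds CFAP57 (43172149 to 43254358, plus strand), WDR78 (66812885 to 66924887, minus strand) and SPAG17 (117953861 to 118185223, minus strand). The closest members on 1 chromosome, DNAH5 and SPEF2, are 21.7 Mb apart. The nearest other listed gene was RANBP3L, 434 kb from SPEF2 and at -1.97 in the authors' deposited table; for the other 9 members it was 1499 to 4249 kb away.

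RFX factors bind the X-box, a palindrome of paired cores, in promoters of many ciliary genes. The letters searched were GTTNC followed by GNAAC after 3, 4 or 5 bases of any kind, which reads the same on both strands. They were set after the promoters of the members had been seen. RefSeq windows were at hand for 8 of the 10 genes, not for WDR78 and DNAAF1. The letters were in 4 of these 8 genes: DNAH7 and CFAP57 among the 6 lower ones, TEKT4 and ENKUR among the 2 higher ones. They occur in 2.88% of 15843 protein-coding genes with a window, and in 20 of the 89 other axoneme list genes with a window (22.5%). The letters were thus more frequent in the other axoneme list genes than in all genes, a difference that was not tested, and they were present here in genes of either direction.

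The sites lie close to the transcript start. In DNAH7 the palindrome GTTGCTTAGCAAC begins 31 bases before the start, and in TEKT4 GTTTCTTGGCAAC begins 24 bases before it. ENKUR has a pair, GTTGCCTAGTAAC and GTTTCCACGGCAAC, which begin 31 and 17 bases before its inner start; its other RefSeq start had none. In CFAP57, GTTGCTATAGGAAC begins at base 15 of the transcript. The windows of DNAH5 and SPAG17 held neither the palindrome nor the single core.

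A single core, GTTGCC on either strand, was in 4 of the 8 genes: DNAH10 and SPEF2, which lack the palindrome, and TEKT4 and ENKUR, where it overlaps the palindrome. It occurs in 16.2% of the genes with a window and in 50.6% of the other axoneme list genes. In DNAH10 the core, shown in capitals with its flanks, reads gggccgccGTTGCCacggacgc and begins 16 bases before the first RefSeq start (chr12:123762285-123762290). The forkhead core TGTTTAC, on either strand, was in none of the 8 genes, in 5.62% of the other axoneme list genes and in 3.75% of all genes. A match says only that the letters are present, and the binding of any factor was not measured.

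**Figure D5:**
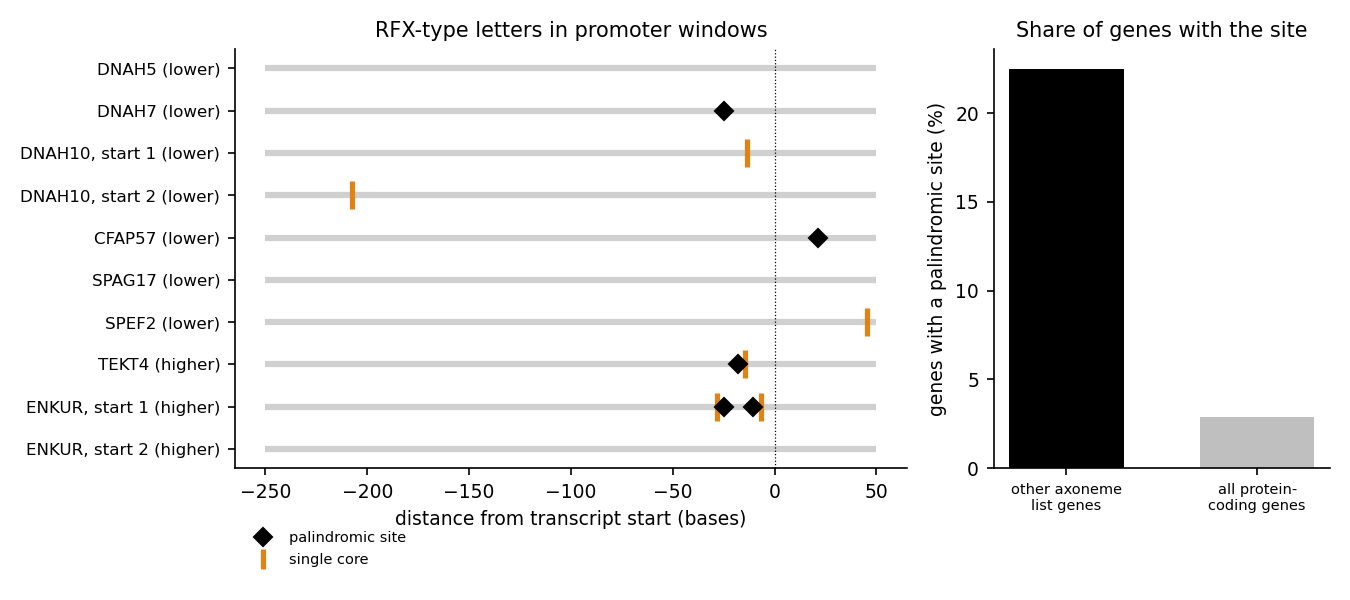
Left, each grey line is a promoter window around a transcript start (position in bases on the x axis) of the 8 genes with a RefSeq window; diamonds mark palindromic RFX-type sites and orange ticks the single core. Right, bars give the share of genes with a palindromic site, 22.5% of the other axoneme list genes and 2.88% of all protein-coding genes with a window. The palindromes of the members lie between 31 bases before and 28 bases after the start.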

How the data were processed

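RNA of K562 cells was sequenced in 4 libraries. Cuffdiff, Cufflinks, TopHat, Bowtie2, SAMtools 1.3.1 and Trim Galore 0.4.4 were used with GRCh38 (hg38), per the submitters' processing notes, whose order, settings and threshold were not analysed here. The deposited table holds 831 rows with a symbol and a fold change made by the authors, read here as log2. The scale is an assumption, made because Cuffdiff writes its fold changes as log2; a signed linear fold would also have both signs and no value between -1 and 1, as here. The direction, knockdown over scramble, is likewise assumed.

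Each symbol was counted once; 740 of 742 matched GENCODE 29 (GRCh38), which gave coordinates (1-based), coding lengths and exon overlaps. The table lists selected genes only, so no differential test, interval or enrichment test was made. Copies were sought with BLAST 2.17.0 and promoter letters in RefSeq windows (GRCh38.p14); the letter search was tested on simulated windows. The members and lists were chosen with earlier results of these data known. Named were the members, the listed genes of 15 lists, and neighbours of members in value and position; some genes that this rule selects are not reported here. Alternatives were a 4-fold minimum, an equal minimum, all rows, a linear reading, the opposite direction (added after seeing the data), and leaving out overlapping genes or single members. Python 3.11.15, pandas 2.3.3, numpy 2.4.6 and matplotlib 3.10.9 were used.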

Additional observations from a re-analysis of the deposited data

How the results depend on the processing

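Of the 10 genes, 8 were lower and 2 higher. At a minimum of 4-fold 2 lower and 1 higher were left, and at an equal minimum in both directions 5 and 2, since stricter minimums drop genes. Of all listed symbols, 176 lower and 118 higher were left at 4-fold, and 339 and 227 at the equal minimum. Without members whose exons overlap another gene 1 lower (DNAH7) and 1 higher (ENKUR) were left. These are too few to tell if the majority of lower genes depends on such an overlap. Counting every row gave 9 lower, because DNAH10 fills 2 rows. The median log2 value of the members, -1.44, was -0.17 without overlapping genes, by the loss of 8 genes, and -0.53 when the values were read as signed linear folds. Under that reading the members differ by 1.22-fold to 2.17-fold. With the direction turned to scramble over knockdown, a reading added after seeing the data, 2 were lower and 8 higher and the median was 1.44. Leaving out any single member gave medians from -1.53 to -1.36. Of the 13 listed axoneme genes, 4 were left at 4-fold and 9 at the equal minimum, and 13 without alternative symbols. No paired analysis was possible because the table has no value per library. For the same reason, leaving out replicates, filters on low values and other pseudocounts were not run. Depth is unknown.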

Other observations

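Families named for the axoneme were also swept by their current RefSeq symbols (CFAP, DNAAF, DNAH, DNAI, DNAL, DRC, ODAD, RSPH, TEKT, SPMIP, SPEF and CATSPER), a sweep made after the values had been seen. Of 138 protein-coding genes with such a name, 12 were in the authors' deposited table, 3 higher and 9 lower. This is 8.70% of the names, beside 3.71% of all annotated protein-coding genes, but 8 of the 12 are members that were chosen from the table, so nothing is read from that share. Besides CASC1 and C1orf158, the sweep found C16orf71, which RefSeq now names as the dynein assembly factor DNAAF8, at -2.22 in the authors' deposited table. It also found CATSPERG, an auxiliary subunit of the sperm calcium channel CatSper, at 1.79 in the authors' deposited table. With C16orf71, the listed assembly factors are DNAAF1 and DNAAF8, both lower. Of all listed symbols 69.4% were lower, so nothing is read from the directions in this sweep.

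Further listed genes with a ciliary or microtubule role were picked after their values were seen. TTLL1, a tubulin polyglutamylase subunit, was at -1.65, and KIF7, a kinesin of the primary cilium tip that acts in Hedgehog signalling, was at -2.03 in the authors' deposited table. CCDC181, a microtubule-binding protein of the mouse sperm flagellum, was at 3.68 and SPATA17 at -2.95 in the authors' deposited table. The alpha-tubulin gene TUBA3E was at -1.22 in the authors' deposited table. ODF3L2, a relative of a sperm tail outer dense fibre gene, was at -2.24 in the authors' deposited table. Of these 6 further genes 5 were lower and 1 (CCDC181) was higher; they were picked by hand, so the split is no result.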
